A study of Mus musculus with 12 samples.

Results

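The proteasome genes were the 49 genes, of 30142 with a single symbol in the platform annotation, whose symbols begin with Psma, Psmb, Psmc, Psmd, Psme or Psmg. The symbol rule uses no expression difference, but this gene set was taken up with earlier results of these data known. Each of the 49 had 1 single-symbol feature on the array. They fall into 8 genes of the 20S alpha ring, 6 standard genes of the 20S beta ring, 4 tissue-specific beta genes, 6 ATPases and 11 non-ATPase subunits of the 19S cap, 3 chaperones of 19S assembly, 4 chaperones of 20S assembly and 3 activators. Another 2 carry the prefix because they are named for a partner: Psmc3ip, a cofactor of meiotic recombination, and Psme3ip1, a partner of the activator Psme3. The last 2 are the pseudogenes Psmb5-ps and Psmb6-ps, whose probes may share sequence with their parent genes, so their signal cannot be assigned to the pseudogene. Another 4 features name several genes at once, among them Psmb5 and Psme2, and were not analysed here.

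The samples were 12 Affymetrix arrays of the whole transcriptome, in 4 groups of 3 that stand for 4 pieces of the mouse hippocampus, in the order CA2 dendritic layer, CA2 cell body layer, CA1 dendritic layer and CA1 cell body layer. The cell body layer is the stratum pyramidale, where the somata of the excitatory pyramidal neurons lie, and the dendritic layer is the stratum radiatum, which their apical dendrites cross together with axons, interneurons, glia and vessels. All 4 groups came from the same kind of animal, namely 3 male Amigo2-EGFP mice from separate litters, strain Amigo2-GFP C57BL/6J, at 6 to 8 weeks, and no drug treatment is named. Amigo2 is a gene of CA2 neurons, so every animal carried the CA2 reporter and no group lacks it. Each piece was taken by laser capture microdissection from about 20 caps of 5 sections, the RNA integrity number was 6.9 to 7.5, and 5 to 7 ng of RNA was amplified. The 6 CA2 arrays carry run number 907 and the 6 CA1 arrays run number 938, so in any comparison of CA2 with CA1 the run and the region cannot be told apart, whereas each comparison of layers lies within a run.

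The proteasome is the large protease that degrades proteins tagged with ubiquitin. Its barrel, the 20S core, is closed by alpha subunits and cuts with beta subunits, and the 19S cap recognises, unfolds and feeds in the substrate. Interferon replaces the catalytic beta subunits by Psmb8, Psmb9 and Psmb10 to form the immunoproteasome, which makes peptides for antigen presentation and is abundant in immune cells. In neurons, proteasomes are found in somata, dendrites and synapses, where protein turnover takes part in synaptic plasticity.

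Promoters are shown for 4 genes of different roles with contrasting layer differences below: the activator Psme4, the ATPase Psmc6 and the lid subunit Psmd6, which were lower in the dendritic layer, and the immunoproteasome subunit Psmb8, which was higher there. Each sequence runs 5′ to 3′ on the gene's strand from 250 bases before to 10 bases after the annotated start, from RefSeq on build GRCm38.p6, and capitals mark matches to a searched motif.
Psme4, chr11:30771525-30771784, plus strand: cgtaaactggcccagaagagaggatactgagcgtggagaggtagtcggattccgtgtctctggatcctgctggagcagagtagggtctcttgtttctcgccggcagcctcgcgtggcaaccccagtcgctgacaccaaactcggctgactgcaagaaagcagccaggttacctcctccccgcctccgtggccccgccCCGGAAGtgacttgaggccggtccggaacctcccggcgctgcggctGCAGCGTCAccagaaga
Psmc6, chr14:45329574-45329833, plus strand: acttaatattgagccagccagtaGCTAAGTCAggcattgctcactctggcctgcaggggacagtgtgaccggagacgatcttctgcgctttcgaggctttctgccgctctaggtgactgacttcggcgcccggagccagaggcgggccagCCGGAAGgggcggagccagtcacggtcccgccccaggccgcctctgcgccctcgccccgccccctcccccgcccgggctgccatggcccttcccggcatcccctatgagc
Psmd6, chr14:14120936-14121195, minus strand: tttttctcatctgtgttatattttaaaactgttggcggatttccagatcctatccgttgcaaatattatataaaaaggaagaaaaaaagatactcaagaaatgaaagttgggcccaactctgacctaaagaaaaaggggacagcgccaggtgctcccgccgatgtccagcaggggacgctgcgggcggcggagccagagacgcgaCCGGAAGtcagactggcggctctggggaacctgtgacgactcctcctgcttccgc
Psmb8, chr17:34197945-34198204, plus strand: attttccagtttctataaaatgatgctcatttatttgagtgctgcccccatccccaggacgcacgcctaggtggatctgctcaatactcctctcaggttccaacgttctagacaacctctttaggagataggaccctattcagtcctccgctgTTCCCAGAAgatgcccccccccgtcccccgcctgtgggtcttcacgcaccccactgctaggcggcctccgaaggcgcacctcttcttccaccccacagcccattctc
The capitals in Psme4 are CCGGAAG, the core letters bound by ETS factors, 53 bases before the start, and a match on the opposite strand to TGACNNNGC, the core of the antioxidant response element, beginning 7 bases before the start. Psmc6 holds the same motifs 100 and 227 bases before its start, the second again on the opposite strand. Psmd6 holds the ETS core 45 bases before its start, and Psmb8 holds TTCNNNGAA, the gamma-interferon activation site, 97 bases before its start. In all, 5 motifs were searched on both strands of windows of 250 bases before to 50 after the start, and 39 of the 49 genes had such a window. The ETS core was in 16 of these 39 genes (41.0%), against 9.93% of 27025 genes with a window. TGACNNNGC was in 5 (12.8%, against 14% of all), TTCNNNGAA in 3 (7.69%, against 9.55%), the interferon-stimulated response core, which is GAAA, NN and GAAA in a row, in 5 (12.8%, against 3.99%) and CCAAT in 16 (41.0%, against 41.1%). Matches of CCGGAAG and TTCNNNGAA can overlap, and a match describes only these letters. Among the genes with an ETS core, 12 of 16 were called lower in the dendritic layer of CA2, against 12 of 23 without one, and 12 of 16 against 14 of 23 in CA1.

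Markers of the captured tissue followed the labels. All 7 CA2 neuron markers were higher in the CA2 than in the CA1 cell body layer, and the summed linear signal of 10 pyramidal neuron markers was 3900 to 4568 in CA2 dendritic arrays, 12198 to 12923 in CA2 cell body arrays, 7264 to 7859 in CA1 dendritic arrays and 15848 to 16662 in CA1 cell body arrays. Markers of other cells ran the opposite way: the summed signal of 11 microglia markers was 6999 to 7488 in CA2 dendritic against 1689 to 1788 in CA2 cell body arrays, and 8364 to 9047 in CA1 dendritic against 1564 to 1636 in CA1 cell body arrays. The 12 astrocyte markers summed to 19941 to 21517 against 5132 to 5209 in CA2 and to 19695 to 20100 against 4160 to 4434 in CA1, and the 12 endothelial markers to 8320 to 8845 against 1788 to 1914 and to 6242 to 6836 against 1361 to 1473, dendritic layer first. Oocyte transcripts were raised on 3 arrays, CA2 dendritic arrays 2 and 3 and CA2 cell body array 1, where 15 oocyte markers averaged 7.36 to 7.51 on the log2 scale, against 5.55 to 5.94 on the other 9 arrays. The medians of all features were 5.68 to 5.88 on the 12 arrays. The 4 poly-A controls averaged 9.39 to 9.66 on CA2 dendritic against 8.53 to 8.73 on CA2 cell body arrays, and 7.51 to 8.43 on CA1 dendritic against 10.68 to 11.08 on CA1 cell body arrays. They were thus higher in the dendritic layer of CA2 and lower in that of CA1. The 4 hybridization controls averaged 12.38 to 12.65 on CA2 dendritic against 12.09 to 12.16 on CA2 cell body arrays, and 13.03 to 13.11 on CA1 dendritic against 12.45 to 12.49 on CA1 cell body arrays. These controls move with the layers, and their part in the layer and region differences below was not tested.

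Values are log2 expression, so 1 unit between groups means a 2-fold change. The proteasome genes were well expressed: 46 of the 49 averaged above the median of all features, 5.758, and the others were the testis-specific alpha subunit Psma8, the thymus-specific beta subunit Psmb11 and Psmb6-ps. Within a group the median SD of the 49 genes over 3 arrays was 0.0681 in the CA2 dendritic, 0.0451 in the CA2 cell body, 0.125 in the CA1 dendritic and 0.0551 in the CA1 cell body layer. The genes of like mean level, used for comparison below, are the 13099 other genes whose mean lay between the 10th and 90th percentile of the 49, that is 6.71 to 10.67.

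Transcripts of the standard proteasome were lower in the dendritic than in the cell body layer of both regions, while the immunoproteasome subunits Psmb8 and Psmb9 were higher there. In CA2, 31 of the 49 genes fell and 4 rose at an adjusted p under 0.05 (limma, Benjamini-Hochberg over all 30142 genes). In that comparison 17.8% of all genes and 32.7% of genes of like level were called lower, and 16.2% and 23.2% higher. In CA1, 34 of the 49 fell and 4 rose, where 18.5% of all genes and 35.3% of genes of like level were called lower, and 28.3% of each were called higher. The median difference of the 49 was -0.31 in CA2, against -0.03 over all genes and -0.07 over genes of like level, and -0.41 in CA1, against 0.12 and -0.03. Of the 49 genes, 30 are standard subunits of the 26S particle, and all 30 lay below 0 in both regions. In CA2 their median was -0.41 (-0.66 to -0.06), with 25 called lower. In CA1 it was -0.49 (-1.05 to -0.13), with 28 called lower. These 30 are not the whole particle, as Psmb5 was not analysed. Sem1, a 19S subunit outside the symbol rule, was not called, at 0.05 ± 0.11 in CA2 (adjusted p = 0.812) and -0.19 ± 0.11 in CA1 (adjusted p = 0.184). Without the 3 arrays with oocyte transcripts, which leaves 1 CA2 dendritic and 2 CA2 cell body arrays, 13 of the 49 were lower and 0 higher in the CA2 dendritic layer, where 8.81% of all genes were lower and 10.1% higher, and 41 of the 49 lay below 0. In that fit the lone CA2 dendritic array is assumed to vary like the arrays of the other groups. The p-values of that fit for CA2 dendritic comparisons, here and below, thus hold no spread of that group. The model also holds the replicate number as a block. The CA2 dendritic array left is numbered 1, and the CA2 cell body arrays left are numbered 2 and 3. The CA2 differences of that fit, here and below, therefore include offsets between numbers that come from the CA1 arrays. Without all arrays numbered 3, 2 genes in place of 4 were higher in the CA2 dendritic layer. Because the pieces are bulk tissue, fewer cells of a type and less RNA per cell cannot be told apart, and the part that the loss of pyramidal neuron signal in the dendritic layer has in these falls was not tested.

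**Figure D1:**
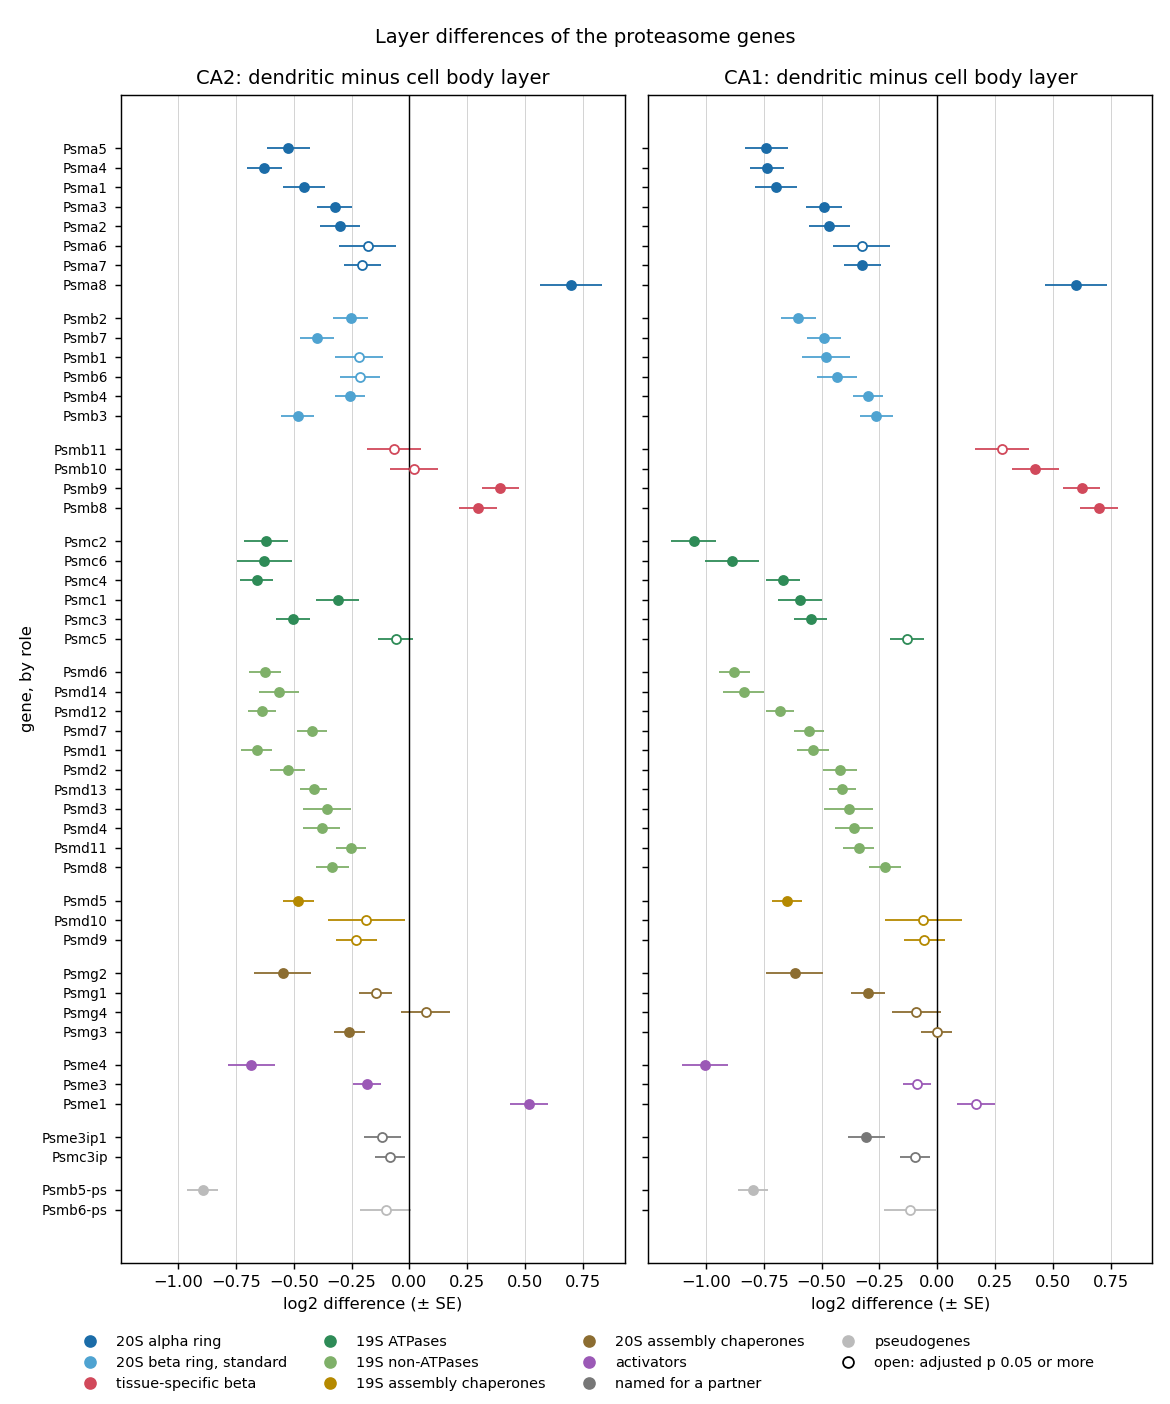
Difference between the dendritic and the cell body layer (x axis, log2, with SE) for the 49 proteasome genes (y axis), grouped by role and coloured by it, in CA2 (left) and CA1 (right). Filled points passed an adjusted p of 0.05. Nearly all core and cap genes lie left of 0, with Psmc2 at -1.05 in CA1 the farthest, and Psmb8, Psmb9 and Psma8 lie right of 0 in both panels.

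**Figure D2:**
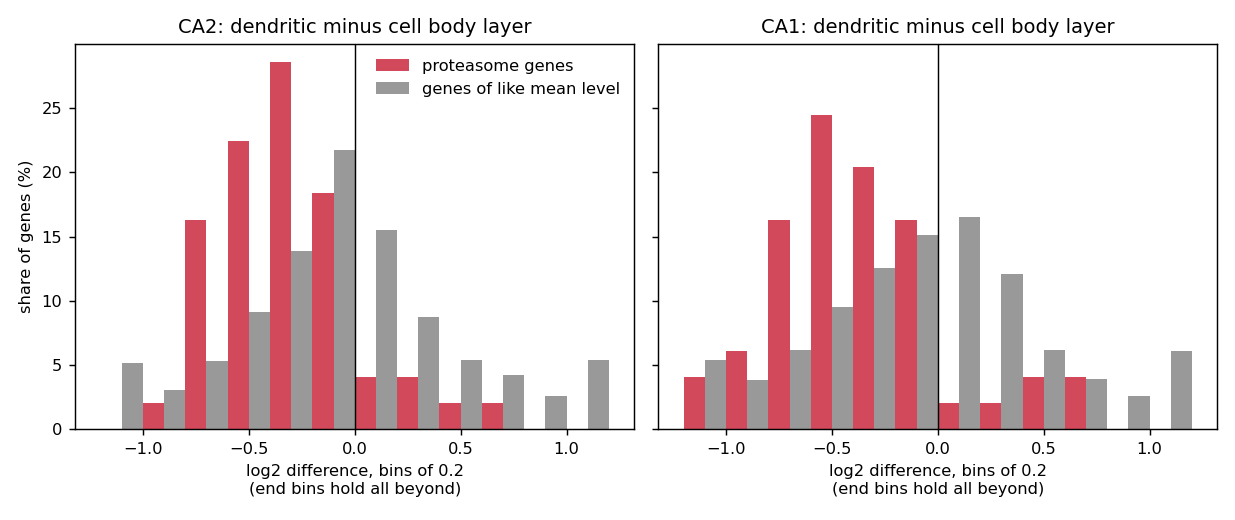
Share of genes (y axis, percent) by layer difference (x axis, log2, bins of 0.2) in CA2 (left) and CA1 (right), for the 49 proteasome genes and the 13099 other genes of like mean level. The proteasome genes centre on -0.31 and -0.41, the genes of like level on -0.07 and -0.03.

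Among the 20S alpha subunits, which form the outer rings and the gate of the barrel, Psma1, Psma2, Psma3, Psma4 and Psma5 fell in the dendritic layers of CA2 and of CA1. Psma4 was 8.64, 8.49 and 8.49 in CA2 dendritic and 9.15, 9.15 and 9.20 in CA2 cell body arrays, a difference of -0.63 ± 0.07 (SE; adjusted p = 7.08e-05). It was 8.45, 8.58 and 8.61 in CA1 dendritic and 9.24, 9.35 and 9.26 in CA1 cell body arrays, a difference of -0.74 ± 0.07 (adjusted p = 2.18e-05). The layers did not overlap in either region. Without the 3 arrays with oocyte transcripts Psma4, Psma1, Psma2 and Psma3 were no longer called in CA2. Their fitted differences were -0.43, -0.33, -0.16 and -0.10, which include the block's offsets between numbers. On the arrays left, Psma1 read 8.92 in the CA2 dendritic layer and 9.39 and 9.36 in the CA2 cell body layer. Psma7 passed in CA1 (-0.32 ± 0.08, adjusted p = 0.00699), and in CA2 it was -0.20 ± 0.08 (adjusted p = 0.0734), or adjusted p = 0.0433 without the replicate block. Psma6 had -0.18 ± 0.12 in CA2 (adjusted p = 0.324) and -0.33 ± 0.12 in CA1 (adjusted p = 0.0505, or 0.0422 without the block).

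Psma8, which replaces Psma7 in testis proteasomes, went the other way. It was 6.09, 6.04 and 5.86 in CA2 dendritic against 5.42, 5.38 and 5.10 in CA2 cell body arrays, a rise of 0.70 ± 0.13 (adjusted p = 0.00203). In CA1 it was 5.97, 5.36 and 5.23 against 4.85, 4.99 and 4.92, a rise of 0.60 ± 0.13 (adjusted p = 0.00437). The layers did not overlap, but on most arrays the gene lay near or below the median of all features, and its CA1 dendritic values had the widest SD of any of the 49 genes in a group, 0.395. Without the 3 arrays with oocyte transcripts the CA2 difference was 0.57 (adjusted p = 0.245).

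All 6 standard beta genes lay below 0 in both regions, with 4 called in CA2 and 6 in CA1. Psmb7, the trypsin-like subunit, was 11, 10.86 and 10.81 in CA2 dendritic and 11.32, 11.29 and 11.26 in CA2 cell body arrays, a difference of -0.40 ± 0.07 (adjusted p = 0.00158). It was 10.36, 10.47 and 10.54 in CA1 dendritic and 10.95, 10.96 and 10.93 in CA1 cell body arrays, a difference of -0.49 ± 0.07 (adjusted p = 0.000359). Every dendritic array was below every cell body array of its region. Without the arrays with oocyte transcripts the CA2 value of Psmb7 was -0.205 (adjusted p = 0.372), and the CA2 calls of Psmb2 (-0.22, 0.413) and Psmb4 (-0.38, 0.0821) were also lost. Psmb6, the caspase-like subunit, differed by -0.21 ± 0.09 in CA2 (adjusted p = 0.0844, or 0.0181 without CA1 dendritic array 2) and by -0.43 ± 0.09 in CA1 (adjusted p = 0.0021). The structural subunits Psmb2, Psmb3 and Psmb4 were called in both regions, between -0.48 and -0.25 in CA2 and between -0.60 and -0.26 in CA1, and for Psmb3 the CA1 layers overlapped (adjusted p = 0.0116, or 0.0684 without the block). Psmb1 was called in CA1 (-0.48 ± 0.10, adjusted p = 0.00365), and in CA2 it was -0.22 ± 0.10 (adjusted p = 0.149).

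The beta subunits of the immunoproteasome did not follow the standard ones. Psmb8, which takes the place of the chymotrypsin-like Psmb5, was 6.83, 6.82 and 7.00 in CA2 dendritic against 6.59, 6.66 and 6.51 in CA2 cell body arrays (0.30 ± 0.08, adjusted p = 0.0173). In CA1 it was 7.20, 7.13 and 7.03 against 6.42, 6.34 and 6.50 (0.70 ± 0.08, adjusted p = 6.68e-05). The layers did not overlap in either region. The CA2 rise of Psmb8 lost its call without CA2 dendritic array 3 (0.22, adjusted p = 0.0895), without CA2 cell body array 1 (0.29, 0.0559) or 3 (0.24, 0.0965), and without the 3 arrays with oocyte transcripts (0.19, 0.509). Psmb9, which replaces Psmb6, was 6.69, 6.78 and 6.76 against 6.24, 6.50 and 6.31 in CA2 (0.39 ± 0.08, adjusted p = 0.0028), and 6.90, 6.79 and 6.71 against 6.22, 6.16 and 6.15 in CA1 (0.62 ± 0.08, adjusted p = 0.000114), dendritic layer first. Again the layers did not overlap, and the CA2 call of Psmb9 was lost without all arrays numbered 3 (0.365, adjusted p = 0.0505) and without the arrays with oocyte transcripts (0.18, 0.447).

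Psmb10, which replaces Psmb7, was called in CA1. Its values were 8.57, 8.26 and 8.52 in CA1 dendritic against 7.99, 8.10 and 7.99 in CA1 cell body arrays, a rise of 0.42 ± 0.10 (adjusted p = 0.00683). In CA2 it was 8.73, 8.48 and 8.40 against 8.45, 8.56 and 8.54, a difference of 0.02 ± 0.10 (adjusted p = 0.916), and the layers overlapped. The sign of that CA2 value turned with median centring (-0.0167) and when CA2 dendritic array 1 (-0.0739) or CA2 cell body array 1 (-0.0594) was left out. The CA1 call was lost without all arrays numbered 1 (0.345, adjusted p = 0.0505) or 3 (0.37, 0.0619). Psmb11, the thymus subunit, had values near the median of all features and was not called in CA2 (-0.07 ± 0.12, adjusted p = 0.736) or CA1 (0.28 ± 0.12, adjusted p = 0.0749). The summed microglia and endothelial markers, given above, were also higher in the dendritic layers. Their part in the rises of Psmb8, Psmb9 and Psmb10 was not tested.

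**Figure D3:**
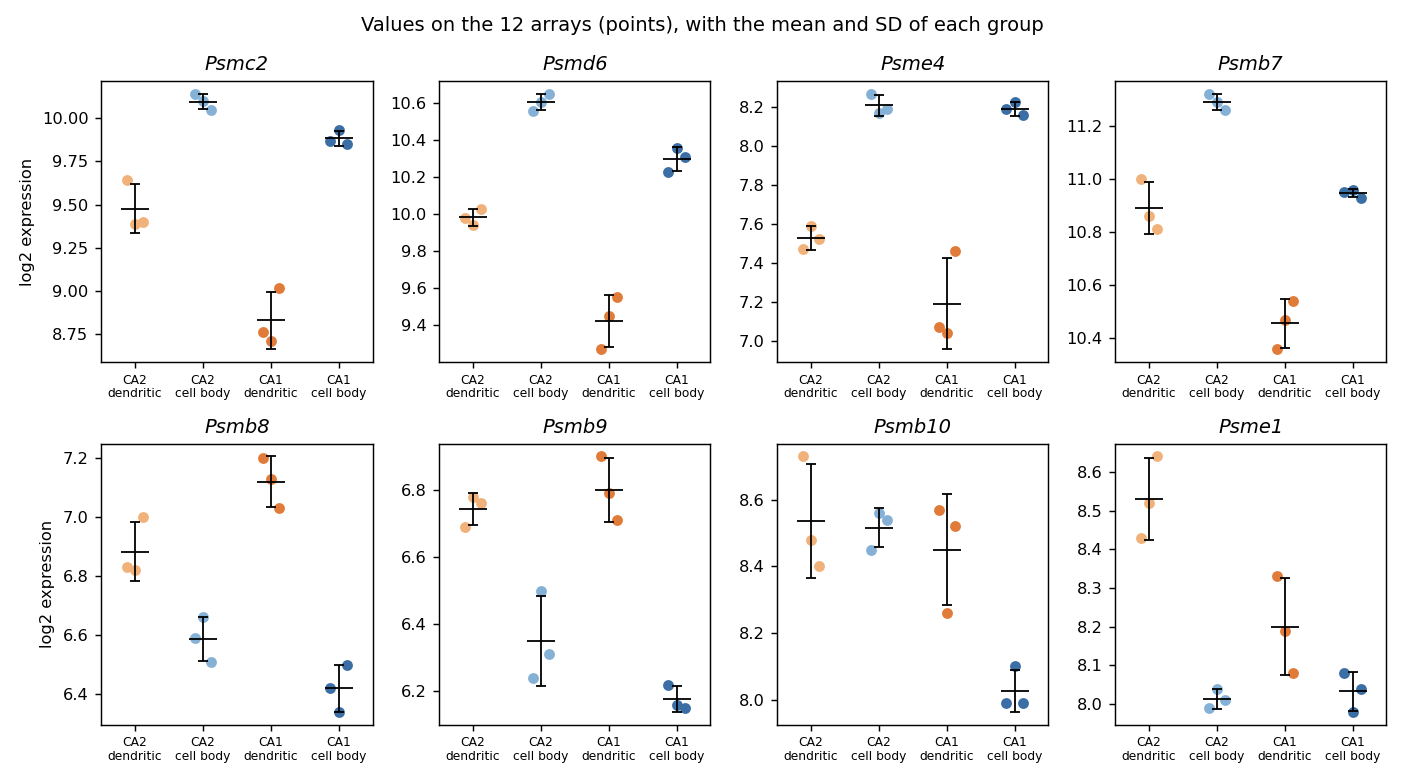
Log2 expression (y axis) on each array (points) of 8 proteasome genes in the CA2 dendritic, CA2 cell body, CA1 dendritic and CA1 cell body layer (x axis), with the mean and SD of the 3 arrays of a group (bars). The upper row, Psmc2, Psmd6, Psme4 and Psmb7, lies lower in the dendritic layers. In the lower row, Psmb8 and Psmb9 lie higher in both dendritic layers, Psmb10 in that of CA1, and Psme1 is highest in the CA2 dendritic layer, at 8.43 to 8.64.

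The ATPases of the 19S base unfold the substrate and open the gate of the core, and 5 of 6 were lower in the dendritic layer of each region. Psmc2 was 9.64, 9.39 and 9.40 in CA2 dendritic against 10.14, 10.10 and 10.05 in CA2 cell body arrays (-0.62 ± 0.10, adjusted p = 0.000468). It was 8.76, 8.71 and 9.02 in CA1 dendritic against 9.87, 9.93 and 9.85 in CA1 cell body arrays (-1.05 ± 0.10, adjusted p = 1.11e-05). That CA1 difference, 2.08-fold, was the widest of the 49 genes, and no dendritic array reached a cell body array of its region. Without the arrays with oocyte transcripts the fitted CA2 differences of Psmc1, Psmc2 and Psmc6 were -0.265, -0.37 and -0.42. Those of Psmc3 and Psmc4 were -0.65 and -0.70. That fit holds 1 CA2 dendritic array, and these values include the block's offsets between numbers. On the arrays left, Psmc4 read 9.01 in the CA2 dendritic layer and 9.65 and 9.65 in the CA2 cell body layer. Psmc6 differed by -0.63 ± 0.12 in CA2 (adjusted p = 0.00173) and by -0.89 ± 0.12 in CA1 (adjusted p = 0.000147), and Psmc4 by -0.66 ± 0.07 and -0.67 ± 0.07, CA2 first (adjusted p = 4.1e-05 and 3.67e-05). Psmc5 was the exception: its values were 11.92, 11.87 and 11.91 in CA2 dendritic and 11.97, 11.94 and 11.97 in CA2 cell body arrays (-0.06 ± 0.07, adjusted p = 0.615). In CA1 they were 11.33, 11.11 and 11.39 against 11.40, 11.45 and 11.37 (-0.13 ± 0.07, adjusted p = 0.17).

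All 11 non-ATPase subunits of the 19S cap fell in the dendritic layers of CA2 and CA1. Psmd6, a subunit of the lid, was 9.98, 9.94 and 10.03 in CA2 dendritic against 10.56, 10.61 and 10.65 in CA2 cell body arrays (-0.62 ± 0.07, adjusted p = 4.22e-05). It was 9.27, 9.45 and 9.55 in CA1 dendritic against 10.23, 10.36 and 10.31 in CA1 cell body arrays (-0.88 ± 0.07, adjusted p = 3.95e-06). The layers were apart by more than the spread of either. Psmd14, the deubiquitinase of the lid, differed by -0.56 ± 0.09 in CA2 (adjusted p = 0.000509) and by -0.84 ± 0.09 in CA1 (adjusted p = 3.06e-05). The large scaffold subunit Psmd1 differed by -0.66 ± 0.07 in CA2 (adjusted p = 2.7e-05) and by -0.54 ± 0.07 in CA1 (adjusted p = 0.000107), and the lid subunit Psmd12 by -0.64 ± 0.06 and -0.68 ± 0.06 (adjusted p = 1.46e-05 and 9.3e-06). The ubiquitin receptor Psmd4 differed by -0.38 ± 0.08 in CA2 (adjusted p = 0.00367) and by -0.36 ± 0.08 in CA1 (adjusted p = 0.00437). Of the 11, 4 lost their CA2 call without the arrays with oocyte transcripts: Psmd14 (-0.35, adjusted p = 0.195), Psmd4 (-0.32, 0.269), Psmd11 (-0.24, 0.327) and Psmd8 (-0.22, 0.38). The smallest differences of the 11 were -0.25 in CA2, of Psmd11, and -0.23 in CA1, of Psmd8.

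The assembly chaperones were divided. Of the 3 that assemble the 19S base, Psmd5 was lower in both regions (-0.48 ± 0.07 in CA2, adjusted p = 0.000201, and -0.65 ± 0.07 in CA1, adjusted p = 2.29e-05). Psmd9 and Psmd10, also known as p27 and gankyrin, were not called in CA2 (-0.23 and -0.19, adjusted p = 0.0731 and 0.465) or CA1 (-0.06 each, adjusted p = 0.613 and 0.779), and without the block Psmd9 passed in CA2. Of the 4 that assemble the 20S core, Psmg2 was lower in both regions (-0.55 ± 0.12, adjusted p = 0.00536, and -0.62 ± 0.12, adjusted p = 0.00225), Psmg3 in CA2 (-0.26 ± 0.07, adjusted p = 0.0124), Psmg1 in CA1 (-0.30 ± 0.07, adjusted p = 0.00678), and Psmg4 in neither (adjusted p = 0.687 and 0.495). Without the arrays with oocyte transcripts the CA2 calls of Psmg2 (-0.55, adjusted p = 0.105) and Psmg3 (-0.095, 0.697) were lost. Psmg1 and Psmg2 act as a pair, as do Psmg3 and Psmg4.

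The activators that can take the place of the 19S cap differed among themselves. Psme4, or PA200, a nuclear activator linked to histone degradation, was 7.47, 7.59 and 7.52 in CA2 dendritic against 8.27, 8.17 and 8.19 in CA2 cell body arrays (-0.68 ± 0.10, adjusted p = 0.000347). It was 7.07, 7.04 and 7.46 in CA1 dendritic against 8.19, 8.23 and 8.16 in CA1 cell body arrays (-1.003 ± 0.10, adjusted p = 2.24e-05). The layers did not overlap in either region, and without the arrays with oocyte transcripts the CA2 value was -0.62 (adjusted p = 0.0736). Psme1, the interferon-inducible subunit of the 11S activator, was 8.43, 8.52 and 8.64 in CA2 dendritic against 7.99, 8.04 and 8.01 in CA2 cell body arrays, a rise of 0.52 ± 0.08 (adjusted p = 0.00062). In CA1 it was 8.33, 8.19 and 8.08 against 8.08, 7.98 and 8.04 (0.17 ± 0.08, adjusted p = 0.122), and the layers overlapped. The CA1 value passed without CA1 dendritic array 3 (0.25, adjusted p = 0.0365) and with quantile normalization (0.27, adjusted p = 0.0415), and without the arrays with oocyte transcripts the CA2 value was 0.27 (adjusted p = 0.233). Psme3, the nuclear 11S activator, was called in CA2 at a small difference (-0.18 ± 0.06, adjusted p = 0.0407, or 0.318 without the arrays with oocyte transcripts) and had -0.09 ± 0.06 in CA1 (adjusted p = 0.26).

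Of the genes that share the prefix alone, Psme3ip1 was lower in CA1 (-0.31 ± 0.08, adjusted p = 0.00949) and Psmc3ip was called in neither region. The feature of Psmb5-ps was 8.13, 8.16 and 8.42 in CA2 dendritic against 9.07, 9.11 and 9.21 in CA2 cell body arrays (-0.89 ± 0.07, adjusted p = 2.67e-06), and differed by -0.80 ± 0.07 in CA1 (adjusted p = 6.13e-06). Psmb6-ps lay near the median of all features and was not called in either region.

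The layer differences of the regions resembled each other gene by gene. Of the 49 genes, 29 were called lower in both regions, 3 higher in both (Psma8, Psmb8 and Psmb9) and 0 in opposite directions. Being lower in both held for 59.2% of the 49 and for 24.7% of genes of like level. Across the 49 genes the CA2 and CA1 differences had a Pearson r of 0.879 and a Spearman rho of 0.862, against 0.828 and 0.773 across the 13099 genes of like level. These r values are descriptions across genes, which share arrays and are not independent replicates.

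**Figure D4:**
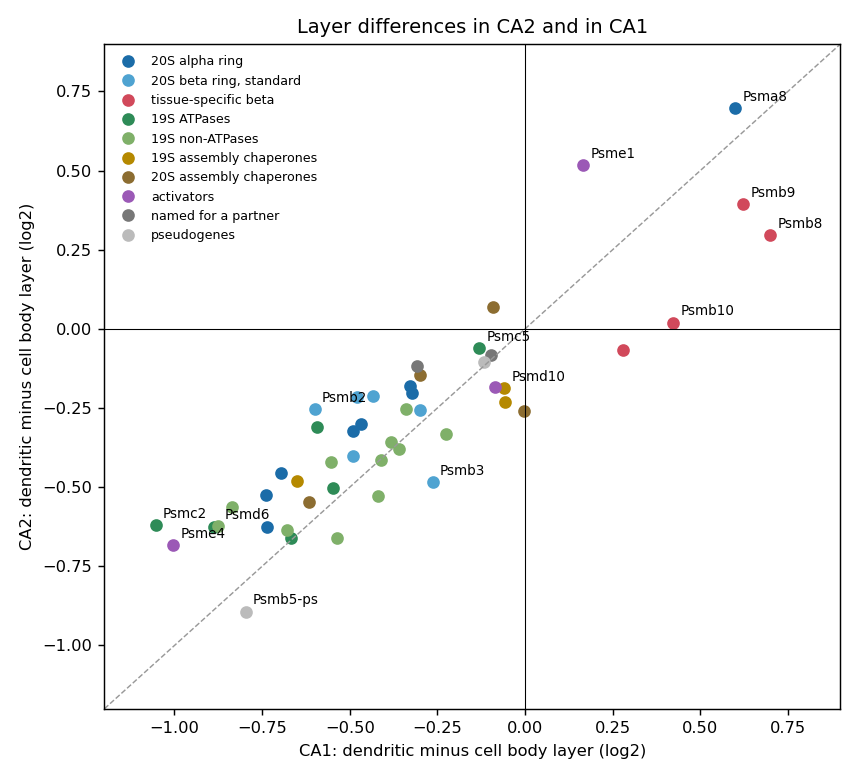
Layer difference in CA2 (y axis, log2) against that in CA1 (x axis, log2) for the 49 proteasome genes, coloured by role, with the line of equality (dashed). The points follow the line at a Pearson r of 0.879, Psmc2 and Psme4 lie above it at the lower left, Psme1 above it, and Psmb8, Psmb9 and Psmb10 below it.

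The difference between the layer differences, CA2 minus CA1, was tested as an interaction, in which a run shift equal in both layers cancels. With limma, 0 of the 49 genes were called. Of all genes 4.81% were called higher and 6.81% lower, or 11.6% in either direction, and of genes of like level 8.41% and 9.57%, or 18%. At an unadjusted p under 0.05, 5 were higher and 3 lower. The smallest adjusted p was that of Psmb8, 0.0523, whose dendritic rise was 0.40 less in CA2, and the next were Psmb2 (0.35 ± 0.11, adjusted p = 0.0626) and Psmc2 (0.43 ± 0.14, adjusted p = 0.0654). Without the replicate block Psmb2, Psmc2 and Psme1 were called higher and Psmb8 lower, at adjusted p = 0.0273 for Psmb8 and 0.0476 for Psme1. Leaving out CA1 dendritic array 3 gave 5 higher and 2 lower, among them Psmb8 (-0.47, adjusted p = 0.0304), CA1 dendritic array 1 gave 1 higher, Psme1 (0.43, 0.0479), CA1 dendritic array 2 gave 1 lower, Psmb10 (-0.51, 0.0455), CA2 dendritic array 3 gave 1 lower, Psmb8 (-0.48, 0.0375), and all arrays numbered 3 gave 2 lower. The interaction of Psme1 was 0.35 ± 0.12 (adjusted p = 0.0805) and that of Psmb10 -0.40 ± 0.14 (adjusted p = 0.0946). Without the arrays with oocyte transcripts these 2 interactions shrank to 0.11 and -0.31, while that of Psmb8 widened to -0.515. That fit holds 1 CA2 dendritic array. Microglia markers were themselves higher in the dendritic layer by less in CA2 than in CA1 in 7 of 11 cases, and their part in the interaction of the immunoproteasome genes was not tested. The median interaction of the 49 genes was 0.09, against -0.11 over all genes and -0.04 over genes of like level. Quantile normalization turned the median of the 49 to -0.0296, against -0.1106 over all genes with that scaling.

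Set against CA1, the proteasome genes were more often higher than lower in CA2, and there the run and the region cannot be told apart. Markers of the cells in the pieces differed as well. In the dendritic layers, 8 of 10 pyramidal neuron markers and 9 of 11 microglia markers were lower in CA2, at the summed levels given above, and 8 of 11 oligodendrocyte markers were higher, with sums of 6130 to 6996 in CA2 against 3999 to 5042 in CA1. In the cell body layers, 10 of 11 oligodendrocyte markers were higher in CA2, with sums of 2323 to 2480 against 1536 to 1758 in CA1. Their part in the region differences of the proteasome genes was not tested. In the dendritic layers 24 of the 49 were higher in CA2 and 1 was lower, where 11.6% of all genes and 21.6% of genes of like level were called higher and 18.6% and 17.7% lower. In the cell body layers 13 were higher and 1 was lower, where 10.6% of all genes and 18.7% of genes of like level were called higher and 10.5% and 15.8% lower. The median difference of the 49 was 0.23 in the dendritic layers, against -0.11 over all genes and -0.02 over genes of like level, and 0.16 in the cell body layers, against 0.02 and 0.03. The balance over all genes moved with the scaling: in the dendritic layers 38.3% of all called genes were higher in CA2, against 56.42% with quantile normalization and 70.32% with median centring, and in the cell body layers 50.34%, 70.38% and 74.31%. The median of all genes in the dendritic layers was -0.11, or -0.02 with quantile normalization and -0.0017 with median centring. In the cell body layers it was 0.0167, or 0.0992 and 0.1167, so all genes rose there as well. The median of the proteasome genes stayed above that of all genes in both layers under these scalings. It was 0.1992 and 0.335 in the dendritic and 0.235 and 0.26 in the cell body layers.

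Without the 3 arrays with oocyte transcripts 8 genes were higher in the dendritic and 6 in the cell body layers, 0 were lower in either, and 3.4% and 7.65% of all genes were called higher. Without all arrays numbered 1, 2 or 3, 14, 11 and 15 genes were higher in the dendritic and 8, 7 and 6 in the cell body layers. With the groups compared alone 8 were higher in the dendritic layers. The shares of all genes called in these fits are not given here.

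In the alpha ring, 7 of 8 genes were called higher in the CA2 dendritic layer, among them the dim Psma8. Leaving out the arrays with oocyte transcripts keeps 1 CA2 dendritic array. In that fit Psma5 was 0.12, against 0.27 with all arrays, Psma7 0.18 against 0.24 and Psma8 0.38 against 0.48. Psma1, Psma2, Psma3 and Psma6 were 0.82, 0.68, 0.555 and 0.77. These values include the block's offsets between numbers, whose part in the moves was not tested. The array left read 8.92 for Psma1, the lowest CA2 dendritic value of that gene. Psma1 was 8.92, 8.94 and 8.99 in CA2 dendritic against 7.97, 8.33 and 8.26 in CA1 dendritic arrays (0.76 ± 0.09, adjusted p = 0.000373), and 9.47, 9.39 and 9.36 in CA2 cell body against 8.93, 8.90 and 8.82 in CA1 cell body arrays (0.52 ± 0.09, adjusted p = 0.00239). No CA2 array overlapped a CA1 array of its layer. Psma2 had 0.60 ± 0.09 in the dendritic (adjusted p = 0.00111) and 0.43 ± 0.09 in the cell body layers (adjusted p = 0.00605, or 0.055 without all arrays numbered 2 and 0.0688 without those with oocyte transcripts). Psma4, in contrast, had -0.01 ± 0.07 and -0.12 ± 0.07 (adjusted p = 0.949 and 0.328).

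Of the standard beta genes, Psmb7 was higher in CA2 in both the dendritic (0.43 ± 0.07, adjusted p = 0.00248) and the cell body layers (0.34 ± 0.07, adjusted p = 0.00816). Psmb2 was the 1 gene called lower in the CA2 cell body layer, at 9.42, 9.47 and 9.46 against 9.78, 9.80 and 9.74 in the CA1 cell body layer (-0.32 ± 0.08, adjusted p = 0.0119). That call was lost without CA1 cell body array 2 (-0.29, adjusted p = 0.0664), without CA2 cell body array 1 (-0.29, 0.0582) or 3 (-0.32, 0.052), without the arrays with oocyte transcripts (-0.30, 0.0892), and with quantile normalization (-0.20, 0.0531) or median centring (-0.22, 0.0761). Psmb10 was higher in the CA2 cell body layer, at 8.45, 8.56 and 8.54 against 7.99, 8.10 and 7.99 (0.49 ± 0.10, adjusted p = 0.00691), while in the dendritic layers it had 0.09 ± 0.10 (adjusted p = 0.522). Psmb8 and Psmb9 were not called between the regions, at -0.24 ± 0.08 and -0.06 ± 0.08 in the dendritic (adjusted p = 0.0537 and 0.593) and 0.17 ± 0.08 each in the cell body layers (adjusted p = 0.202 and 0.167). The dendritic value of Psmb8 passed without the replicate block (adjusted p = 0.0315) and without CA1 dendritic array 3 (-0.30, 0.0306) or CA2 dendritic array 3 (-0.31, 0.0353). The cell body call of Psmb7 was lost without all arrays numbered 2 (0.35, adjusted p = 0.086) or 3 (0.35, 0.0565), or without those with oocyte transcripts (0.305, 0.052), and that of Psmb10 without all numbered 3 (0.46, 0.0744).

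In the 19S cap, Psmc5, an ATPase that hardly differed between layers, was higher in CA2 in both. It was 11.92, 11.87 and 11.91 in CA2 dendritic against 11.33, 11.11 and 11.39 in CA1 dendritic arrays (0.62 ± 0.07, adjusted p = 0.000371). In the cell body layers it was 11.97, 11.94 and 11.97 in CA2 against 11.40, 11.45 and 11.37 in CA1 (0.55 ± 0.07, adjusted p = 0.000505). The regions did not overlap in either layer. Psmc6 and Psmc2 were higher in the CA2 dendritic layer (0.66 ± 0.12, adjusted p = 0.00315, and 0.65 ± 0.10, adjusted p = 0.00114), with Psmc6 at adjusted p = 0.0512 without all arrays numbered 1 and 0.0618 without those with oocyte transcripts, and in the cell body layers Psmc6 was called (0.40 ± 0.12, adjusted p = 0.037, or 0.182 without the arrays with oocyte transcripts) and Psmc2 had 0.21 ± 0.10 (adjusted p = 0.156). Psmd12 was higher in both layers, by 0.54 ± 0.06 in the dendritic and 0.49 ± 0.06 in the cell body layers (adjusted p = 0.000279 and 0.000282). Psmd8 was the 1 gene called lower in the CA2 dendritic layer (-0.26 ± 0.07, adjusted p = 0.0211). It lost that call without CA1 dendritic array 3 (-0.20, 0.0587), CA2 dendritic array 2 (-0.24, 0.0772) or CA2 dendritic array 3 (-0.25, 0.0633), with median centring (-0.15, 0.178), with the groups compared alone (-0.26, 0.127), with array weights (-0.25, 0.0611) and without the arrays with oocyte transcripts (-0.17, 0.408).

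The chaperone Psmd10 had the widest difference between the cell body layers, at 9.62, 9.36 and 9.44 in CA2 against 8.80, 8.54 and 8.75 in CA1 (0.78 ± 0.17, adjusted p = 0.00792). In the dendritic layers it was 9.37, 9.07 and 9.42 in CA2 against 8.37, 9.02 and 8.52 in CA1 (0.65 ± 0.17, adjusted p = 0.0171). The regions did not overlap, but CA2 dendritic array 2 and CA1 dendritic array 2 lay close together. The cell body call was lost without all arrays numbered 3 (0.82, adjusted p = 0.0711) or those with oocyte transcripts (0.66, 0.0616). The dendritic call was lost without CA1 dendritic array 1 (0.46, adjusted p = 0.0664) or 3 (0.57, 0.0535), without CA2 dendritic array 1 (0.61, 0.0586) or 3 (0.57, 0.0633), with the groups compared alone (0.65, 0.0721) and without the arrays with oocyte transcripts (0.815, 0.11). All 3 activators were higher in the CA2 dendritic layer, by 0.27 for Psme3, 0.33 for Psme1 and 0.34 for Psme4 (adjusted p = 0.0105, 0.0159 and 0.0319), and Psme1 lost its call without CA2 dendritic array 2 (0.33, adjusted p = 0.0518) or 3 (0.26, 0.064) and with the groups compared alone (0.33, 0.112). Without the arrays with oocyte transcripts all 3 lost their calls, with Psme1 at 0.14 (adjusted p = 0.466), Psme3 at 0.24 (0.222) and Psme4 at 0.34 (0.252). In the cell body layers Psme3 was called (0.36 ± 0.06, adjusted p = 0.00199), and Psme1 had -0.02 ± 0.08 (adjusted p = 0.91), a sign that turned with quantile normalization (0.0569) and median centring (0.08).

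**Figure D5:**
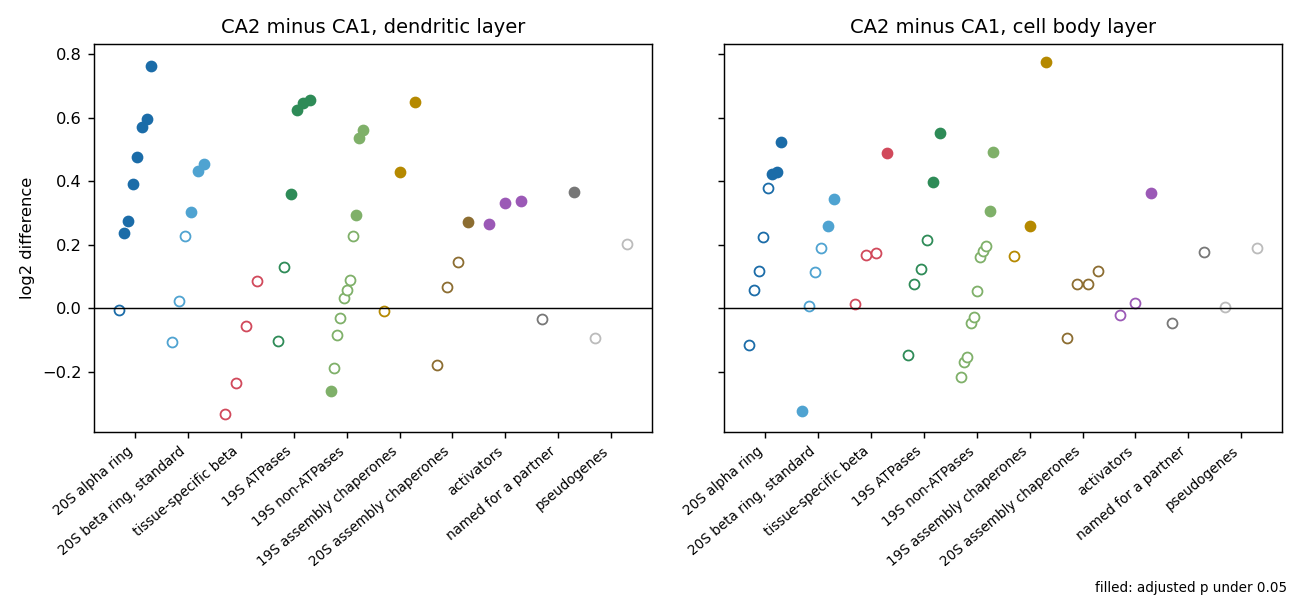
Difference between CA2 and CA1 (y axis, log2) of the 49 proteasome genes by role (x axis) in the dendritic (left) and the cell body layer (right), filled where the adjusted p was under 0.05. Most points lie above 0, led by Psma1 at 0.76 on the left and Psmd10 at 0.78 on the right, and the run cannot be told apart from the region.

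Genes that work with the proteasome were set beside it, from lists chosen with earlier results of these data known. Of all genes, 17.8% were called lower and 16.2% higher in the CA2 dendritic layer. In that of CA1 the shares were 18.5% and 28.3%. Of 11 measured partners outside the symbol rule, 6 were lower and 1 higher in the CA2 dendritic layer, and 7 lower and 1 higher in the CA1 dendritic layer. Usp14, a deubiquitinase bound to the 19S cap, differed by -0.99 ± 0.09 in CA2 (adjusted p = 8.98e-06) and by -0.92 ± 0.09 in CA1 (adjusted p = 1.44e-05), and Uchl5, another one, by -0.79 ± 0.09 in CA1 (adjusted p = 5.3e-05). Ubqln4, a shuttle factor that brings ubiquitinated proteins to the cap, was higher in the CA1 dendritic layer (0.78 ± 0.08, adjusted p = 3.42e-05), whereas the shuttles Rad23b in CA1 (-0.80 ± 0.13, adjusted p = 0.00049) and Ubqln2 in CA2 (-0.74 ± 0.11, adjusted p = 0.000274) were lower. Each of these was called in the same direction in the other region. In CA2, Uchl5 differed by -0.43 (adjusted p = 0.00344), Rad23b by -0.69 (0.0014) and Ubqln4 by 0.24 (0.0476). In CA1, Ubqln2 differed by -0.48 (adjusted p = 0.00378). The 11 partners had medians of -0.34 in CA2 and -0.20 in CA1.

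Of 23 measured enzymes that activate or conjugate ubiquitin, 14 were lower and 0 higher in the CA2 dendritic layer, and 18 lower and 1 higher in the CA1 dendritic layer, with medians of -0.37 and -0.42. Ube2n, which builds K63-linked chains, differed by -0.79 ± 0.10 in CA2 and -0.78 ± 0.10 in CA1 (adjusted p = 0.000145 and 0.000148). Of the p97 segregase Vcp and its adaptors, which extract proteins for degradation, 5 of 10 were lower in the dendritic layer of CA2 and 6 of 10 in that of CA1, Vcp by -0.46 ± 0.09 and -0.50 ± 0.09 (adjusted p = 0.00181 and 0.00102). The chaperonin CCT, another ring-shaped complex of cytosolic subunits that was taken for comparison, had 6 of 7 measured genes lower in CA2 and 7 of 7 in CA1, with medians of -0.43 and -0.40. In the same comparisons 17.8% of all genes were called lower in CA2 and 18.5% in CA1. Of the genes of like level to the proteasome genes, 32.7% and 35.3% were. No difference between these lists and the proteasome genes was tested.

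The antigen presentation and interferon genes outside the symbol rule were also higher in the dendritic layers. Of 11 measured, 7 were higher and 0 lower in the CA2 dendritic layer, and 11 higher in the CA1 dendritic layer, with medians of 0.26 and 0.55. Among all genes, 16.2% were called higher in the CA2 and 28.3% in the CA1 dendritic layer. H2-K1, a class I heavy chain, differed by 1.22 ± 0.09 in CA2 and 1.26 ± 0.09 in CA1 (adjusted p = 3.31e-06 and 2.93e-06), and B2m, the light chain, by 0.62 ± 0.08 and 0.97 ± 0.08 (adjusted p = 0.0002 and 8.62e-06). Ifitm3, an interferon-induced membrane protein, differed by 2.97 ± 0.15 and 2.84 ± 0.15 (adjusted p = 1.6e-07 and 2.64e-07). In the comparison of CA2 with CA1, 1 of the 11 was higher and 2 lower in the dendritic layers, and 3 were higher and 0 lower in the cell body layers.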

How the data were processed

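Tissue pieces of 3 mice were measured on 12 arrays. The authors deposited log2 expression values from RMA, the robust multi-array average, per the submitters' processing notes. Its version is not given in the sources used here. RMA subtracts background and equalises the intensity distributions, though the medians of all features still ran from 5.68 to 5.88 on these arrays. Differences of dim features can be compressed. Precision is limited by how few arrays there are.

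Of 72688 features, 30604 had 1 symbol in GEO's platform annotation, 2146 had several and 39938 were unnamed here. The feature with the highest mean was kept for each of 30142 genes. Of the 49 proteasome genes, 47 were matched to RefSeq by Entrez identifier. Probes of related subunits and pseudogenes can share sequence.

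R 4.3.3 and limma 3.58.1 fitted 1 linear model to the 12 arrays (lmFit, then eBayes, two-sided tests), holding the 4 groups and, as a block, the replicate number. The 5 comparisons were contrasts of it, each Benjamini-Hochberg adjusted over all 30142 genes. A call is an adjusted p under 0.05. The script was tested on simulated data. No filter on low values was applied. Per the labels' protocols, 4 pieces came from each brain and the titles number the arrays 1 to 3, but no label says that the number is the mouse. Deviations from group means correlated at -0.346 to 0.132 in the 18 same-numbered pairs, 1 of them over 0.1, and at -0.134 to 0.251 in the 36 other pairs. The p-values measure the spread between these arrays.

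Named genes are the 6 largest called rises and falls of each comparison, the interferon-inducible and catalytic subunits, and up to 4 of each pathway list by smallest p, and other genes appear by role. The genes and lists were chosen with earlier results of these data known. Alternatives were the fit without the block, quantile normalization, median centring, a filter on low values, every feature, the mean over features, groups alone, array weights, omission of the 3 arrays with oocyte transcripts, and omission of each array or number.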

Additional observations from a re-analysis of the deposited data

Results flagged for a closer look

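Among the proteasome partners, the layer difference in CA2 departed from that in CA1 for 2 genes by the interaction test of limma. Ube3c, a ubiquitin ligase that acts at the proteasome, had an interaction of -0.5167 (adjusted p = 0.00576), with means of 9.06 in the CA2 dendritic and 9.78 in the CA2 cell body layer, and 9.22 in the CA1 dendritic and 9.43 in the CA1 cell body layer. Ubqln4 had an interaction of -0.5367 (adjusted p = 0.0184), with means of 8.30 against 8.06 in CA2 and 8.78 against 8.01 in CA1, dendritic layer first. These values include the CA2 arrays with oocyte transcripts, and the alternatives below were not examined for the partners. None of the 49 proteasome genes passed that test, and groups of 3 arrays were too small to look for single outlying arrays.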

How the results depend on the processing

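Each alternative was run on the same proteasome genes, except the filter on low values. It left out Psma8, Psmb11 and Psmb6-ps, so its medians are over fewer genes. The fit on every feature was adjusted over all 72688 features. Causes of the other moves below were not tested. The median layer difference of the proteasome genes in CA2 was -0.3357 with quantile normalization, -0.3467 with median centring, -0.3283 with the filter on low values and -0.3225 without the arrays with oocyte transcripts, which left 0 genes higher and 13 lower, and in CA1 it was -0.2896 with quantile normalization. Without the replicate block, 3 genes were higher and 1 lower in the interaction and 3 lower between the dendritic layers, and the block otherwise moved no count by over 1.5 times. In the interaction, quantile normalization gave 3 lower with a median of -0.0296 and -0.1192 for Psmb7, median centring gave 1 lower, the filter 2 higher and 1 lower, and array weights 2 higher. Between the cell body layers, quantile normalization gave 24 higher and 0 lower (median 0.235), median centring 22 and 0 (median 0.26), array weights 2 lower, and omission of the arrays with oocyte transcripts 6 and 0, and Psme1 was 0.0569, 0.08 and 0.0358 with quantile normalization, centring and that omission, while Psmb6 was 0 with array weights. Between the dendritic layers, median centring gave 0 lower (median 0.335) and 0.0517 for Psmb9, the filter 2 lower, groups alone 8 higher and 0 lower, array weights 0 lower, and omission of the arrays with oocyte transcripts 8 and 0. Median centring put Psmb10 at -0.0167 between the CA2 layers. The scalings also moved all genes between the cell body layers. Of all called genes there, 70.38% were higher in CA2 with quantile normalization and 74.31% with median centring, against 50.34% in the main fit. The medians of all genes there were 0.0992 and 0.1167, against 0.0167.

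Over the 15 fits that left out an array or a replicate number, the CA1 layer comparison had 3 to 6 genes higher, 29 to 35 lower and a median of -0.4194 to -0.3578, and that of CA2 2 to 4, 22 to 33 and -0.3283 to -0.2789. The interaction had 0 to 5 higher, 0 to 2 lower and a median of 0.0639 to 0.145. The cell body layers had 6 to 15 higher, 0 to 1 lower and a median of 0.105 to 0.165, and the dendritic layers 11 to 23, 0 to 2 and 0.175 to 0.26. Psmb10 was -0.11 to 0.1 between the CA2 layers and -0.0183 to 0.19 between the dendritic layers, where Psmb9 was -0.11 to 0.02. Between the cell body layers Psme1 was -0.06 to 0.015 and Psmb6 -0.025 to 0.0494. Dim genes near the median of all features, such as Psma8, have little signal over background.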
